A study of Mus musculus with 8 samples.

Results

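The small proline-rich protein (Sprr) family was followed through 10 genes, Sprr1a, Sprr1b, Sprr3, Sprr2a1, Sprr2b, Sprr2d, Sprr2e, Sprr2f, Sprr2g and Sprr2h, chosen by symbol and matched to the count table by Ensembl identifier without its version. All 10 were found among the 52325 genes of the table, which holds 17 Sprr rows. The other 7 rows are Sprr2a2, Sprr2a3, Sprr2c-ps, Sprr2i, Sprr2j-ps, Sprr2k and Sprr4. Endometrium had been cut by laser from frozen uterine sections of female mice matched at metestrus, 4 Thra1PV/+ and 4 WT, with 1 stranded paired-end mRNA library per mouse. Thra1PV/+ mice carry PV, a mutation that makes thyroid hormone receptor α1 dominant negative, in 1 allele of Thra, and WT mice carry no mutated allele. Strain and the ages of these 8 mice are not given in the sources used here. The captured tissue held several cell types, and the libraries held between 48791883 and 59819099 estimated counts.

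Sprr proteins are short, proline-rich substrates of transglutaminases, which cross-link them into the cornified envelope under the plasma membrane of stratified squamous cells. Their genes lie in the epidermal differentiation complex, beside those of involucrin, loricrin and filaggrin. Sprr1 and Sprr3 transcripts are known mainly from squamous linings, whereas Sprr2 transcripts are also made by the simple columnar epithelium of the mouse uterus, where they respond to estrogen.

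All 10 genes lie on chromosome 3 of GRCm38. The Sprr2 members are on the plus strand between Sprr2a1 (ENSMUSG00000078664.2, chr3:92215799-92221911) and Sprr2h (ENSMUSG00000046259.2, chr3:92385685-92387324), with Sprr2d (ENSMUSG00000042212.3) at chr3:92339140-92340873 and Sprr2f (ENSMUSG00000050635.1) at chr3:92365187-92366442. Sprr1b, Sprr3 and Sprr1a (ENSMUSG00000050359.7, chr3:92483952-92485895) follow on the minus strand. Sprr2g is annotated as a polymorphic pseudogene, a gene that is intact in some strains only.

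How well reads can be told apart between copies was read from the transcripts of GENCODE M21, as the share of 31-base words of a gene's transcripts that occur in no other gene. It was 100% for Sprr1a, Sprr1b and Sprr3, 92.1% for Sprr2f, 89.7% for Sprr2d and 97.0% for Sprr2h. It was 78.9% for Sprr2e and 68.1% for Sprr2b. Sprr2a1 stood apart, with 3.06% of its words to itself. Its transcript was 99.9% identical over 2867 aligned bases to that of Sprr2a2 and 98.9% identical over 2880 to that of Sprr2a3. The deposited values of Sprr2a1 therefore depend on how salmon divided shared reads, and its level is given below also as the sum of the 3 copies. Sprr2d and Sprr2f, at 80.7% identity, shared 10 words. Identity counts aligned bases only. Sprr1a shared 0 words with Sprr2a1 at 79.1% identity and with Sprr2b at 65.5%.

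**Figure D1:**
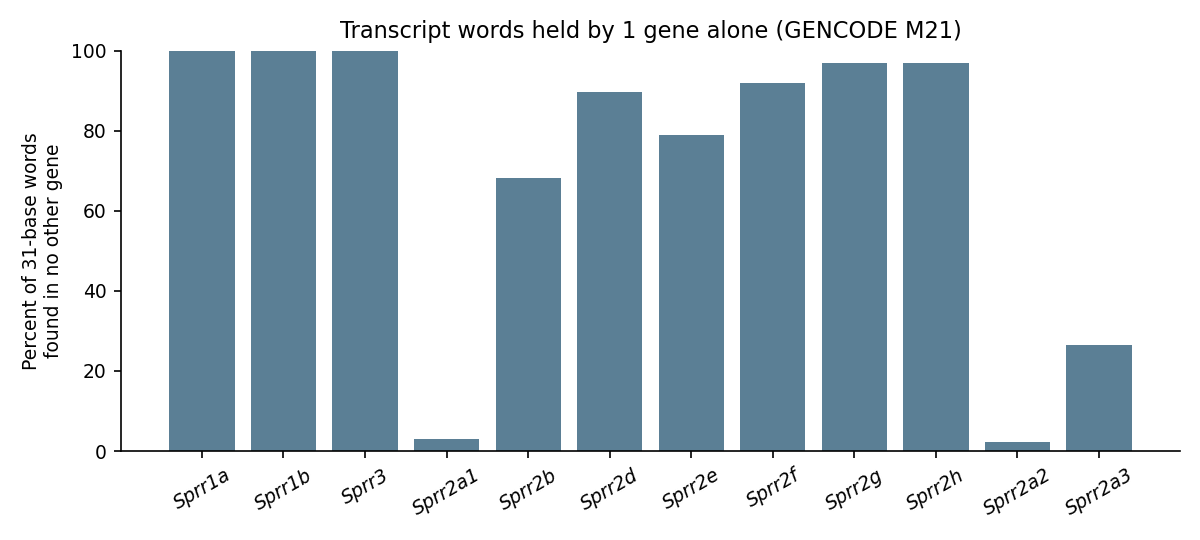
Bars give the percent of 31-base words in each gene's annotated transcripts that occur in no other annotated gene (vertical axis, 0 to 100 percent). Sprr2a1 and Sprr2a2 are at 3.06% and 2.17%, and Sprr2d and Sprr2f at 89.7% and 92.1%.

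Promoters are shown for Sprr1a, the 1 squamous member with enough counts to test, and for Sprr2b, Sprr2d and Sprr2f, the Sprr2 members among the 10 with the highest mean levels, to set shared letters side by side. They are RefSeq windows from 250 bases before to 50 after the gene start, on GRCm38.p6, printed 5′ to 3′ on the strand of the gene, Sprr1a at chr3:92485832-92486131 on the minus strand and, on the plus strand, Sprr2b at chr3:92316455-92316754, Sprr2d at chr3:92338890-92339189 and Sprr2f at chr3:92364937-92365236. Capitals mark the AP-1 word TGANTCA and the octamer word ATTTGCAT, each searched on both strands.
Sprr1a: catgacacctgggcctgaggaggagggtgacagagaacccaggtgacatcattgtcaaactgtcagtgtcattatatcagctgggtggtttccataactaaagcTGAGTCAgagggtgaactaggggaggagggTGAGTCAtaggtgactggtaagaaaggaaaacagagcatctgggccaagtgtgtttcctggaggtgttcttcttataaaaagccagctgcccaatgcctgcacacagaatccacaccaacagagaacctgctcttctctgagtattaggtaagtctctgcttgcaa
Sprr2b: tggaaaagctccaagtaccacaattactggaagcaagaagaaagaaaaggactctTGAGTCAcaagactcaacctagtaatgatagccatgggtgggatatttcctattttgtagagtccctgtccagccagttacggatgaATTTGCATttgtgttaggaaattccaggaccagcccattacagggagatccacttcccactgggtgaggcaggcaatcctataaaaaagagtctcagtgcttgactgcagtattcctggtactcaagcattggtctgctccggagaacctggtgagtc
Sprr2d: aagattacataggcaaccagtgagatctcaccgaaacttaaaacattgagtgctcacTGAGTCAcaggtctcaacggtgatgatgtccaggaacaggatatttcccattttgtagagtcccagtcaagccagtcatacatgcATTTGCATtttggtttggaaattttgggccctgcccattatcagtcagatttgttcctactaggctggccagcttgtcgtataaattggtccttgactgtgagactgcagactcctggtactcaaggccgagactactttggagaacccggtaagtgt
Sprr2f: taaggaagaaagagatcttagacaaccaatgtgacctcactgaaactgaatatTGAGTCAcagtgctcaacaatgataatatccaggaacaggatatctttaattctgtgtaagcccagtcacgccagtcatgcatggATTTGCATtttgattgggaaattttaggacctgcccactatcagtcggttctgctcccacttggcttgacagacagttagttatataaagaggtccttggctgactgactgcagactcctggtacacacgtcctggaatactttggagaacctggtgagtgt

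Windows were found for 14 of the 17 Sprr rows, and for 9 of the 10 members, all but Sprr2g. TGANTCA was in 9 of the 14 and in 7.93% of all 27025 promoters of the same length, and ATTTGCAT in 7 of the 14, all of them Sprr2 genes, and in 1.75% of all. Sprr2d has the AP-1 word at -193 and the octamer at -108, and Sprr2f at -197 and -112. Sprr1a has the AP-1 word at -146 and -116 and no octamer. The windows of Sprr2d and Sprr2f were 78.7% identical over 287 aligned bases and those of Sprr2d and Sprr2e 89.9% over 298. TATAAA was in 10 of 14 and in 14.2% of all promoters. The nuclear receptor word AGGTCA was in 1, that of Sprr2f at -219, and in 16.0% of all. The palindrome GGTCANNNTGACC, the estrogen response element in its full form, was in 0 of 14 and in 0.0666% of all. A match describes letters only, and both words marked in capitals occur in the window of Sprr2d and in that of Sprr2f alike.

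Of the 10 members, 8 passed the count filter and were tested. Sprr1b and Sprr3 did not pass it. The thresholds for a call were a fold change no smaller than 2 and a Benjamini-Hochberg adjusted p-value no larger than 0.1. By the quasi-likelihood test of edgeR over 18174 genes, 0 of the 8 were called. Across all tested genes 0.924% were called higher and 0.066% lower in Thra1PV/+ endometrium. At an unadjusted p-value under 0.05, 3 members passed in the same test, Sprr1a, Sprr2d and Sprr2a1, where 5.05% of all tested genes passed with a higher level. Sprr2a1 lay at the edge of that threshold (unadjusted p = 0.04995 from edgeR), and with the 105 genes that have no symbol left out its value was 0.05001 and the number was 2. DESeq2, the tool of the authors' own test, called 2, Sprr1a and Sprr2d, where 2.68% of the tested genes were called higher. DESeq2 was fitted to the 30306 genes with at least 1 count. Limma voom with sample quality weights also called 2, and 311 of all 18174 genes in either direction. In simulated counts of 4 against 4 libraries, 36.4% of the calls of DESeq2 were of unchanged genes. For voom and edgeR the shares were 9.85% and 8.16%. The simulation held 18174 genes, not the 30306 of the DESeq2 fit above, with 200 changed by a fixed log2 fold of 3. Its shares pool all calls over 3 draws and do not apply to Sprr1a or Sprr2d singly. The same 3 members had every Thra1PV/+ library above every WT library in CPM (counts relative to the TMM-normalized library size), which 3.55% of tested genes did.

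**Figure D2:**
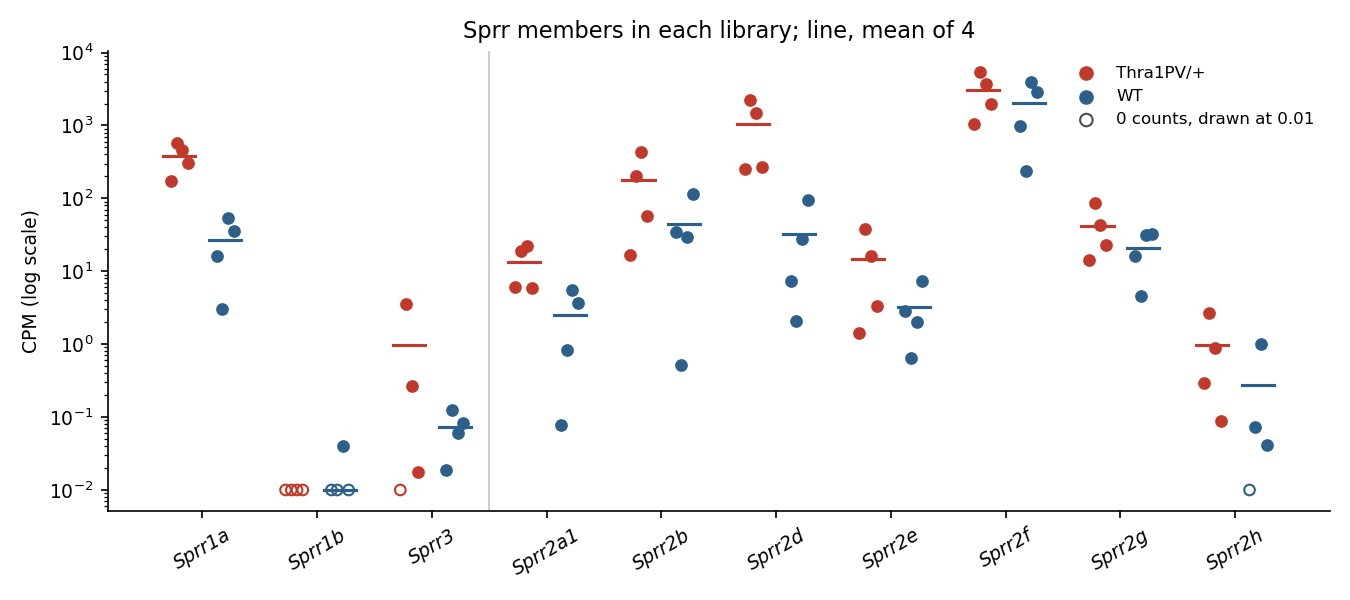
Points give the CPM of each member in each library on a log axis, Thra1PV/+ in red and WT in blue, with lines at the means of 4 libraries and open points for 0 counts, drawn at 0.01 CPM. Sprr1a, Sprr2d and Sprr2a1 have no overlap between the genotypes, and Sprr2f, at 236 to 5466 CPM, overlaps.

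Sprr1a encodes an envelope precursor of suprabasal squamous cells that is also known to be induced by tissue injury. It had 9541, 28410, 22193 and 17282 estimated counts in Thra1PV/+ libraries 1 to 4, and 847, 167, 2694 and 1688 in WT libraries 1 to 4. On the CPM scale these were 175, 576, 453 and 303 in Thra1PV/+, and 16.2, 3.02, 53.6 and 35.3 in WT endometrium. The lowest Thra1PV/+ library was above the highest WT library, and WT library 2 was far below the other WT libraries. The means were 377 ± 175 CPM and 27.0 ± 22.1 CPM (SD, n = 4 each), and edgeR gave a log2 fold change of 3.80 with standard error 0.82 and adjusted p = 0.122. Sprr1a did not pass the threshold in that test, and it passed in DESeq2 (adjusted p = 2.15e-05). Without WT library 2 the log2 fold change was 3.47 (adjusted p = 0.0675 from edgeR), and Sprr1a was then called. Over the 8 fits with 1 library left out the log2 fold change ranged from 3.47 to 4.40, the highest without WT library 3 (adjusted p = 0.129 from edgeR), and only the fit without WT library 2 called it.

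Sprr1b, its close relative in the epidermis, had 2 counts in WT library 3 and 0 in the other 7 libraries. Both genotypes were at or under the floor of 3 counts, so no fold change is given. Sprr3, a precursor typical of internal squamous linings such as the esophagus, had 0, 175, 13 and 1 counts in Thra1PV/+ and 1, 7, 3 and 4 in WT libraries. Nearly all Thra1PV/+ counts of Sprr3 came from library 2, and the genotypes overlapped. The squamous members were thus represented by Sprr1a alone: summed, Sprr1a, Sprr1b and Sprr3 had 175, 580, 454 and 303 CPM in Thra1PV/+ and 16.2, 3.14, 53.7 and 35.4 CPM in WT endometrium. The ratio of the means was 13.9.

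Among the Sprr2 members, Sprr2f is the gene best known for its estrogen response in the uterus, and it had the highest level. It had 57079, 269373, 184050 and 110772 counts in Thra1PV/+ and 51124, 13068, 197310 and 139499 in WT libraries. In CPM it had 1048, 5466, 3761 and 1940 in Thra1PV/+, and 975, 236, 3925 and 2920 in WT endometrium. WT libraries 3 and 4 lay within the Thra1PV/+ range, and Thra1PV/+ library 1 lay close to WT library 1. The means were 3054 ± 1965 and 2014 ± 1704 CPM (SD, n = 4 each), and the edgeR log2 fold change was 0.60 with standard error 0.81 and adjusted p = 0.872. A difference of this size is within the spread between libraries.

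Sprr2d showed another pattern. It had 13718, 110785, 72652 and 15142 counts in Thra1PV/+ and 379, 114, 1395 and 4517 in WT libraries. In CPM it had 252, 2248, 1485 and 265 in Thra1PV/+, and 7.24, 2.06, 27.8 and 94.5 in WT endometrium. Thra1PV/+ libraries 2 and 3 were far above 1 and 4, WT library 4 was the highest WT library, and the genotypes did not overlap. The means were 1062 ± 979 and 32.9 ± 42.6 CPM (SD, n = 4 each), and the log2 fold change was 5.01 with standard error 1.34 (edgeR adjusted p = 0.240, DESeq2 adjusted p = 0.000129). In the 8 edgeR fits with 1 library left out it ranged from 4.34 to 6.42 and was called in 0.

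The other Sprr2 members are envelope precursors whose separate functions are less well defined. Sprr2a1 had 6.10, 19.3, 22.3 and 5.94 CPM in Thra1PV/+, and 0.0785, 0.822, 5.62 and 3.63 CPM in WT endometrium, with no overlap by a narrow margin (log2 fold change 2.40, standard error 1.05, adjusted p = 0.512 from edgeR). In the deposited TPM the Sprr2a1 values of the genotypes overlapped. Summed over Sprr2a1, Sprr2a2 and Sprr2a3, the CPM were 148, 703, 813 and 252 in Thra1PV/+ and 18.9, 8.90, 351 and 177 in WT endometrium. The sum overlapped, since WT libraries 3 and 4 were above Thra1PV/+ library 1.

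Sprr2b had 16.5 to 438 CPM in Thra1PV/+ and 0.524 to 114 CPM in WT endometrium, and Sprr2e had 1.41 to 37.4 and 0.650 to 7.41 CPM. Sprr2g had 14.4 to 86.2 and 4.63 to 32.0 CPM. Sprr2h was near the detection limit, with 16, 132, 43 and 5 counts in Thra1PV/+ and 0, 4, 50 and 2 in WT libraries. For these 4 genes the genotypes overlapped. The log2 fold changes of Sprr2b, Sprr2e, Sprr2g and Sprr2h were 1.99, 2.17, 0.98 and 1.82, with adjusted p-values between 0.574 and 0.749 from edgeR. They depended on single libraries: with 1 left out they ranged from 1.04 to 3.04, 1.09 to 2.98, 0.34 to 1.31 and 0.59 to 4.63. The ranges of Sprr2a1 and Sprr2f were 2.03 to 3.18 and 0.16 to 1.17. The log2 fold change of each of the 8 tested members was above 0 in every alternative in which it was fitted. All alternatives drew on the same 8 libraries and are not separate evidence. In the main fit the median of the members was 2.08, beside -0.05 over all tested genes. Of the 18174 tested genes 7843 were above 0 in that fit.

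**Figure D3:**
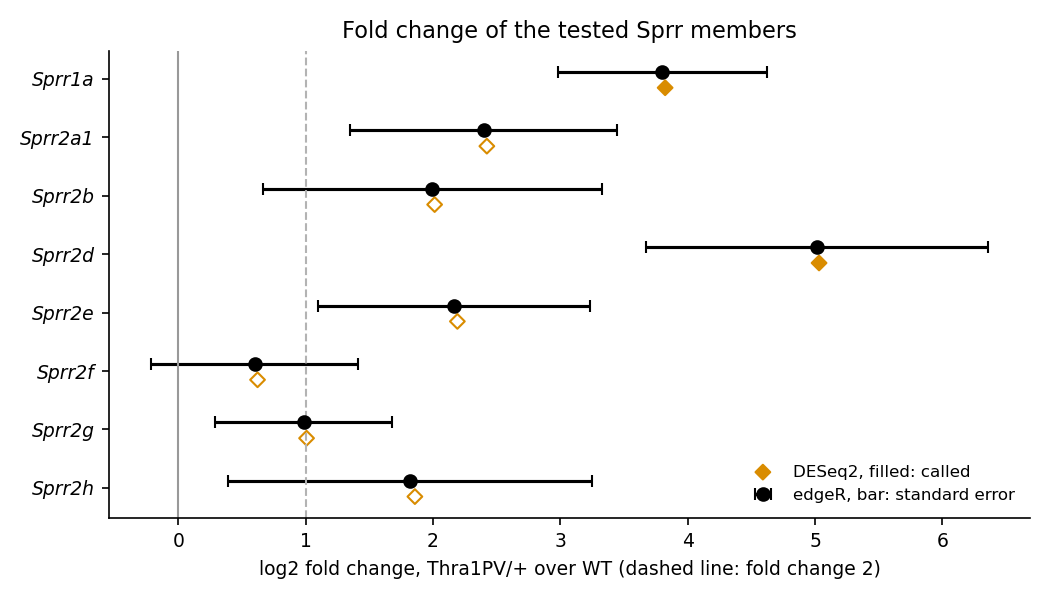
Black points give the log2 fold change of each tested member from edgeR, with bars of 1 standard error, and diamonds that from DESeq2, filled where called. Values run from 0.60 for Sprr2f to 5.01 for Sprr2d, and DESeq2 called Sprr1a and Sprr2d.

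Levels of different genes were compared per transcript length, in the deposited TPM, which are quantile-normalized. In WT endometrium Sprr2f had a mean of 5269 TPM and stood above each other member in each library, with no overlap with Sprr2b at 94.1 TPM. Sprr2b, Sprr2d (81.3 TPM), Sprr2g (55.9 TPM) and Sprr1a (55.2 TPM) followed with overlapping ranges. Sprr2b was above Sprr2d in 2 of 4 WT libraries, and Sprr2d above Sprr2g in 1 of 4. The WT mean of Sprr2d rests largely on library 4, at 233 TPM where the other WT libraries had 5.28 to 67.9 TPM. In Thra1PV/+ endometrium the order of the 10 members began with Sprr2f at 9423 TPM, Sprr2d at 3049 TPM and Sprr1a at 822 TPM. Sprr2f was above Sprr2d and Sprr2d above Sprr1a in 4 of 4 libraries, though neighbouring ranges overlapped. Sprr2a2, not among the 10, had 951 TPM in Thra1PV/+ and 231 TPM in WT endometrium, above the means of Sprr1a and of Sprr2b there. By mean TPM, Sprr2f ranked 8 of 52325 genes in Thra1PV/+ and 19 in WT endometrium, while Sprr2d ranked 42 and 1539.

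Summed over all Sprr2 rows, the CPM were 1480, 8746, 6556 and 2541 in Thra1PV/+, and 1056, 253, 4368 and 3345 in WT endometrium. The genotypes overlapped, and the ratio of the means was 2.14. Without Sprr2f the sums were 432, 3280, 2795 and 601 CPM against 80.1, 16.9, 442 and 425 CPM, a ratio of 7.37, and WT library 3 was just above Thra1PV/+ library 1. All Sprr rows together took 0.185% to 0.909% of the counts of a Thra1PV/+ library and 0.0278% to 0.372% of those of a WT library.

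The shares of Sprr2 counts held by Sprr2d and Sprr2f did not overlap between the genotypes, those of the 3 Sprr2a copies met within counting error, and those of Sprr2b, Sprr2e and Sprr2g overlapped, a description chosen after the values were seen. Sprr2d made up 17.0%, 25.7%, 22.6% and 10.4% of the Sprr2 counts in Thra1PV/+, and 0.685%, 0.814%, 0.635% and 2.83% in WT libraries. The lowest Thra1PV/+ share, in library 4, had a 95% Wilson interval of 10.3% to 10.6%, and the highest WT share, in library 4, one of 2.75% to 2.91%, which cover counting error only. Every Thra1PV/+ library was above every WT library. Sprr2f made up 57.4% to 76.4% of the Sprr2 counts in Thra1PV/+ and 87.3% to 93.3% in WT libraries, again with no overlap. The 3 copies of Sprr2a held 8.04% to 12.4% in Thra1PV/+ and 1.79% to 8.03% in WT libraries, and the 95% Wilson intervals of WT library 3 (7.92% to 8.14%) and Thra1PV/+ library 2 (7.96% to 8.12%) overlapped. Sprr2b held 1.11% to 6.68% and 0.207% to 3.41%, Sprr2g 0.653% to 0.985% and 0.717% to 1.83%, and Sprr2e 0.0955% to 0.428% and 0.0460% to 0.271%.

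**Figure D4:**
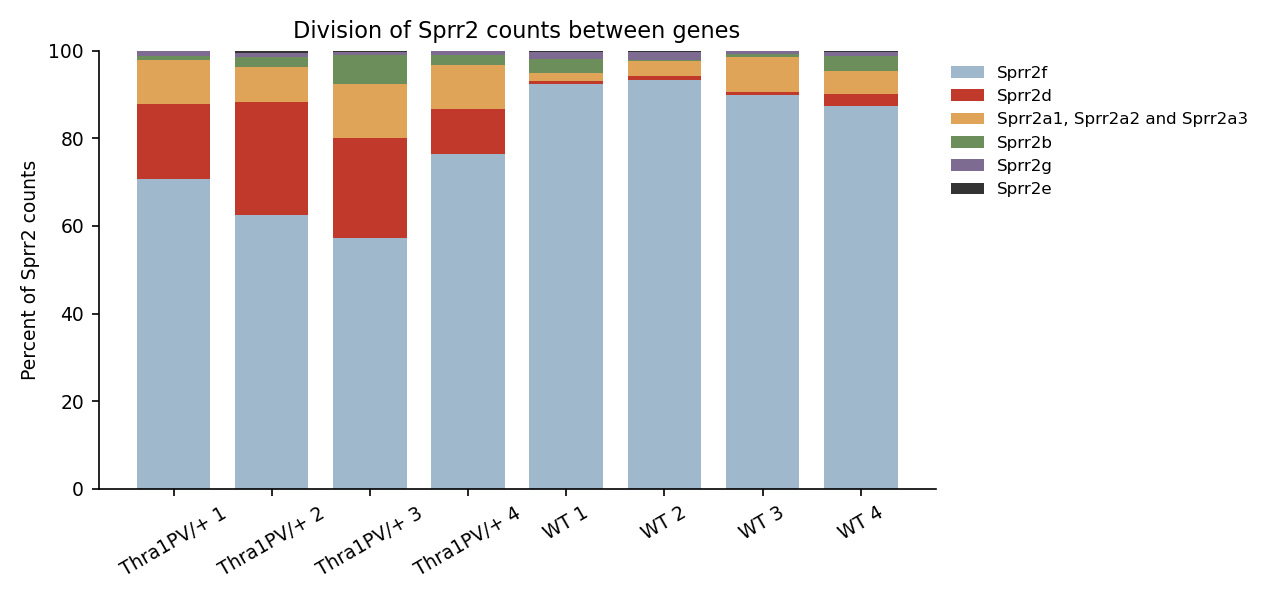
Each stacked bar divides the Sprr2 counts of 1 library between genes, in percent, with Sprr2f at the bottom and Sprr2d in red above it. Sprr2d holds 10.4% to 25.7% in the Thra1PV/+ libraries and at most 2.83% in the WT libraries. Rows outside the legend hold too little to be seen.

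Sprr1a varied less in proportion to Sprr2f than by itself, also described after the values were seen. The ratio of Sprr1a to Sprr2f counts was 0.167, 0.105, 0.121 and 0.156 in Thra1PV/+, and 0.0166, 0.0128, 0.0137 and 0.0121 in WT libraries. Within WT the ratio varied 1.37-fold, while Sprr1a itself varied 17.8-fold and Sprr2f 16.6-fold in CPM. Those WT spreads rest on library 2, the lowest for both genes at 3.02 and 236 CPM. Within Thra1PV/+ the ratio varied 1.58-fold, Sprr1a 3.29-fold and Sprr2f 5.22-fold. The mean log2 ratio was higher by 3.30 in Thra1PV/+, and by 3.19 in TPM. No p-value is given for these shares and ratios, since they were chosen on these libraries.

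The markers of simple and of squamous epithelium differed in how they went with these levels. The 9 simple epithelium genes, led by Krt8, summed to 2296, 5023, 5740 and 4132 CPM in Thra1PV/+, and 2340, 3122, 5845 and 6139 CPM in WT endometrium. All 9 were tested, 0 were called by edgeR or DESeq2 and 0 had an unadjusted p-value under 0.05. Divided by this sum, Sprr1a was 0.0763, 0.115, 0.0790 and 0.0732 in Thra1PV/+ and 0.00691, 0.000966, 0.00917 and 0.00576 in WT libraries, and did not overlap. Sprr2d was 0.0642 to 0.448 in Thra1PV/+ and 0.000659 to 0.0154 in WT libraries, also with no overlap. Sprr2f over the same sum did overlap, at 0.456 to 1.09 and 0.0756 to 0.672.

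The 6 basal squamous genes, led by Krt5, summed to 2518, 3524, 4075 and 2935 CPM in Thra1PV/+, and 117, 131, 321 and 278 CPM in WT endometrium, and edgeR and DESeq2 each called 5 of 6 higher. The 8 suprabasal squamous genes, led by Krt13, summed to 665, 1316, 898 and 706 CPM, and 16.6, 23.1, 51.1 and 16.7 CPM. Of those 8, edgeR called 2 higher and DESeq2 7, and no basal or suprabasal marker was at 0 in all libraries. The shares of all tested genes called higher were 0.924% by edgeR and 2.68% by DESeq2. Both squamous sums were higher in each Thra1PV/+ library than in any WT library, as Sprr1a and Sprr2d were, and their part in either result was not tested. In tissue captured in bulk, fewer cells of a type and less RNA per cell cannot be told apart.

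**Figure D5:**
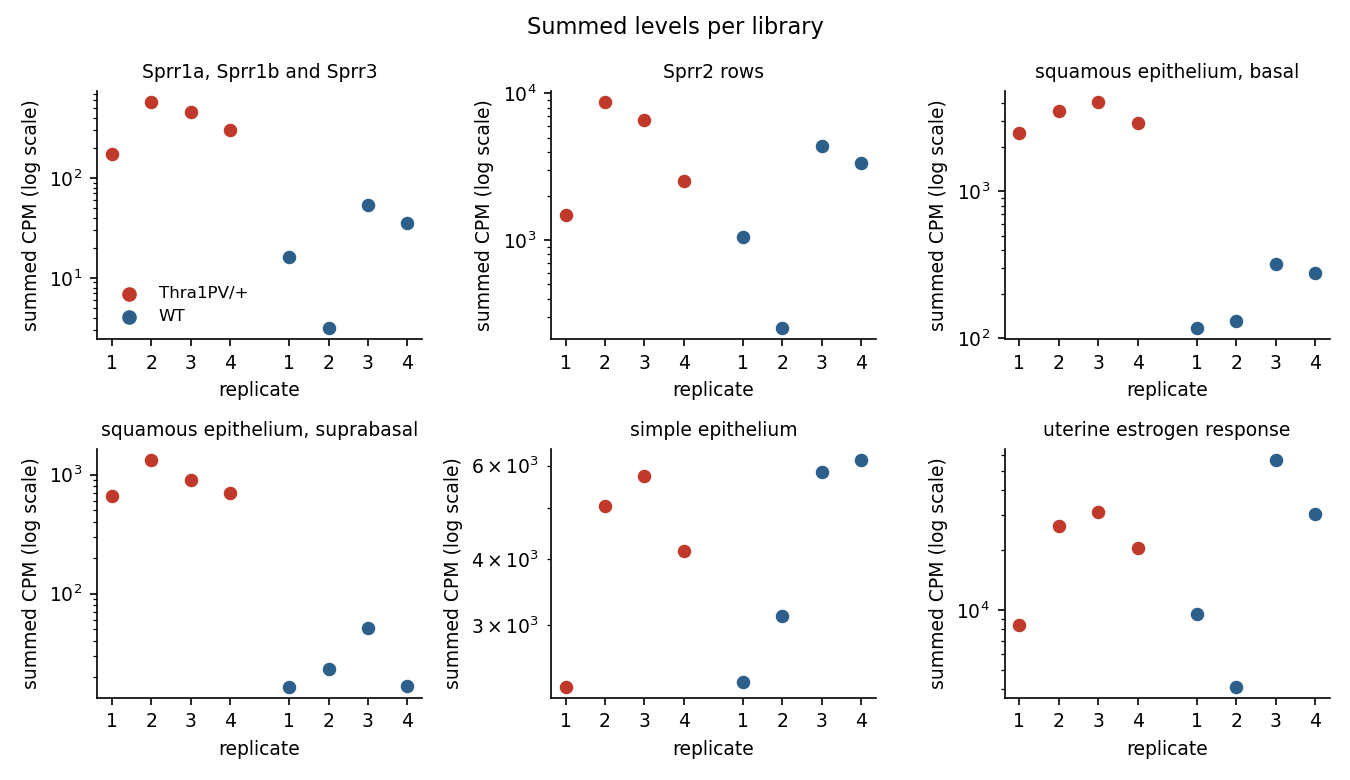
Points give summed CPM per library on log axes for the squamous Sprr members, the Sprr2 rows and 4 marker lists, Thra1PV/+ in red and WT in blue. The squamous lists and the Sprr1a, Sprr1b and Sprr3 sum separate the genotypes, whereas the Sprr2, simple epithelium and estrogen response sums overlap.

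Other compartments were uneven between libraries. The 6 smooth muscle genes, led by Acta2, summed to 308, 125, 151 and 638 CPM in Thra1PV/+, and 12640, 596, 529 and 1094 CPM in WT libraries, with WT library 1 far above the rest. The 6 stromal genes, led by Dcn, summed to 110 to 1034 CPM in Thra1PV/+ and 490 to 2435 CPM in WT endometrium. Those lists had 0 calls by edgeR. At an unadjusted p-value under 0.05 in edgeR 6 and 1 of their genes were lower, beside 4.72% of all tested genes, and DESeq2 called 0 and 1 lower, beside 1.12%. DESeq2 gave no adjusted p-value for 5 of the 6 smooth muscle genes, so those could not be called by it. The neutrophil list, of which 7 of 10 genes were tested, summed to 80.3 to 740 CPM in Thra1PV/+ and 10.6 to 146 CPM in WT libraries, led by S100a9, with 0 called by edgeR, 2 called higher by DESeq2 and 4 higher at an unadjusted p-value under 0.05. Blood genes, led by Hbb-bs, summed to 14.6 to 29.3 CPM and 17.1 to 179 CPM, with 0 of 5 called by edgeR or DESeq2 and 2 lower at an unadjusted p-value under 0.05. The 6 oviduct genes, of ciliated cells but for Ovgp1, a product of secretory cells and the most abundant, summed to 11.6 to 15.5 CPM and 24.0 to 115 CPM. Of these 5 were tested, edgeR called 1 lower, Foxj1 (adjusted p = 0.00723), and DESeq2 called 2 lower. No gene of these 5 lists was at 0 in all libraries, and their part in the Sprr results was not tested.

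Partners of the Sprr proteins in the cornified envelope were listed as 16 genes, of which 12 were tested. EdgeR called 5 higher and 0 lower and DESeq2 9 higher, with a median log2 fold change of 3.32. Over all tested genes 0.924% were called higher by edgeR and 2.68% by DESeq2. Dsg3, a desmosomal cadherin of squamous cells, had 17.4 ± 7.89 CPM in Thra1PV/+ and 0.758 ± 0.804 CPM in WT endometrium (SD, n = 4 each, adjusted p = 0.0698 from edgeR). Asprv1, a protease that processes filaggrin, had 19.6 ± 12.7 and 2.68 ± 1.16 CPM (adjusted p = 0.0905 from edgeR). Dsc3 and Casp14 had adjusted p-values of 0.00582 and 0.0268 from edgeR. Dsp, which encodes desmoplakin, was the most abundant gene of the list. Of 35 other genes of the epidermal differentiation complex 4 were tested and 15 were at 0 counts in all 8 libraries. Only Ivl, encoding involucrin, was called by edgeR (12.9 ± 4.20 against 0.0250 ± 0.0192 CPM, adjusted p = 0.00143). Pglyrp4 had an adjusted p-value of 0.132 from edgeR and 9.81e-07 from DESeq2, with no overlap, and Tchh of 0.740 and 0.716. DESeq2 called 2 of the 4.

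Among 20 genes of transcription factor families known to act on Sprr promoters or in squamous differentiation, all tested, edgeR called 3 higher and 0 lower. DESeq2 called 4 higher and 0 lower, and the median log2 fold change was 0.41. At an unadjusted p-value under 0.05 in edgeR 7 passed, 6 of them higher. Of all tested genes 5.05% passed higher and 4.72% lower, and 0.924% were called higher by edgeR and 2.68% by DESeq2. Grhl3, which acts in barrier formation, had 7.44, 32.1, 26.6 and 17.1 CPM in Thra1PV/+, and 0.229, 0.488, 1.97 and 1.49 CPM in WT endometrium (log2 fold change 4.32, standard error 0.77, adjusted p = 0.0604 from edgeR). Like Sprr1a, it was highest in Thra1PV/+ library 2 and WT library 3. Among WT libraries Grhl3 was lowest in library 1, at 0.229 CPM, and Sprr1a in library 2, at 3.02 CPM. Grhl1 and Zfp750 had log2 fold changes of 3.35 and 2.67 (adjusted p = 0.0129 and 0.0973 from edgeR). Elf3, an epithelial ETS factor and the most abundant gene of the list, had 790 ± 324 and 628 ± 550 CPM (SD, n = 4 each).

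The uterine estrogen response list offers the other comparison for Sprr2. All 19 genes were tested, 0 were called by edgeR or DESeq2, and 1 had an unadjusted p-value under 0.05 in edgeR. Their median log2 fold change was -0.21. Ltf, encoding lactoferrin and the most abundant, had 4534, 9800, 11264 and 8482 CPM in Thra1PV/+, and 2853, 1290, 16021 and 12221 CPM in WT endometrium. WT libraries 3 and 4 were the highest and WT libraries 1 and 2 the lowest of all 8, and Sprr2f had the same order among the WT libraries. Complement C3 and Lcn2 had log2 fold changes of -0.93 and -0.06 (adjusted p = 0.841 and 0.993 from edgeR).

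The genes most like the Sprr levels were sought by the Pearson correlation, over 8 libraries, of log2 CPM deviations from the genotype means, among 12132 genes whose mean log2 CPM reached 2, Sprr genes left out of the ranking. For the summed Sprr1a, Sprr1b and Sprr3 level these were Apol7a, Rnf186, Rtp4, Pparg and Ankrd37, with correlations of 0.990 to 0.996. For the Sprr2 sum they were Gprc5a, Irf7, Rasal1, Muc4 and Plac8, with 0.994 to 0.997. Such values are the highest of many, over few libraries. The mucin gene Muc4 had 131, 1690, 990 and 350 CPM in Thra1PV/+, and 217, 27.4, 925 and 851 CPM in WT endometrium. Its order of libraries was that of the Sprr2 sum within Thra1PV/+, and within WT as well.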

How the data were processed

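The authors trimmed reads with Trimmomatic, ran Salmon on mouse build mm10, and deposited 1 estimated count per gene and library, not normalized. Versions and the annotation release are not given in the sources used here. The authors also deposited TPM values, whose sorted values differ by at most 0.291 between libraries, the form that quantile normalization gives. DESeq2 was the authors' tool for normalization and for the test between genotypes, with the fold change and adjusted p thresholds used here. Of the columns with per-sample values 1 was not used.

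Estimated counts were rounded to whole numbers and analysed with edgeR 4.0.16, limma 3.58.1 and R 4.3.3. The filter was filterByExpr with a smallest count of 10 and a smallest total of 15, leaving 18174 of 52325 genes, scaled with TMM. The quasi-likelihood test had genotype as its only term, with Benjamini-Hochberg adjustment over all tested genes. Standard errors were the fold change divided by the root of F. Of the 52325 identifiers 52220 have a symbol, and the 105 without one, which hold up to 0.00897% of counts in any 1 library, stayed in the fit. The fit had first been run without them and was changed after those results were seen, so both are given where they differ. Log2 CPM used a prior count of 2, and 3 counts per library were the floor.

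The tests were also run on simulated counts, with 200 of 18174 genes changed by a log2 fold of 3, of which edgeR recovered 78.8% and DESeq2 92.2%. Alternatives were DESeq2 1.42.0, limma voom, other normalizations and filters, log2 TPM with limma, replicate number as a block, summed Sprr2 rows, an adjusted p of 0.05 and each library left out. Positions are from GENCODE M21, with the same identifier version for all 17 Sprr rows. Transcripts were aligned with Biopython 1.88, and promoters are RefSeq sequences of GRCm38.p6. Genes named are the members, the other Sprr rows and the 5 genes most like each summed level. Of each list they are the most abundant gene and up to 4 called genes by size of change. With fewer than 2 called, they are the called gene and the 3 with the highest mean CPM. Members and lists were chosen with earlier results of these data known.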

Additional observations from a re-analysis of the deposited data

Results flagged for a closer look

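For each level, share and ratio, the gap between the outermost library and its neighbour was divided by the range within the genotype and held against the critical value of the Dixon test. Of 82 groups of 4 libraries 3 passed. In independent groups of normally distributed values chance flags about 1 in 20, which is 4.1 of 82. Many groups here reuse the same counts, and shares and ratios were not put on a log scale. The number 4.1 is therefore only a rough guide. WT library 4 had 2.83% of its Sprr2 counts from Sprr2d, where the other WT libraries had 0.635% to 0.814%. The same library had a Sprr2d to Sprr2f count ratio of 0.0324, where the others had 0.00707 to 0.00872. Both values rest on the same Sprr2d counts. Thra1PV/+ library 2 had a ratio of Sprr1a to the simple epithelium sum of 0.115, where the other Thra1PV/+ libraries had 0.0732 to 0.0790.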

How the results depend on the processing

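The number of members called, 0 with edgeR, was 1 with upper quartile normalization, with library size alone, with every gene of at least 1 count and with limma on log2 TPM at a pseudocount of 1, and 2 with DESeq2, with voom and with limma on log2 TPM at a pseudocount of 0.1. All genes called in these fits, in that order, were 198, 211, 187 of 30306, 152, 793 of 30306, 311 and 225. With 1 library left out the number of members ranged from 0 to 1. Sprr1a was the gene gained in each case, and Sprr2d was the other where 2 were called. Over its alternatives the adjusted p-value of Sprr1a ranged from 2.15e-05 to 0.317 and that of Sprr2d from 0.000129 to 0.529. The number of called genes among all tested, 180, was 81 with at least 10 counts in every library, 793 with DESeq2, which was also fitted to 30306 genes in place of 18174, 311 with voom and 119 at an adjusted p of 0.05, and 81 to 167 with 1 library left out. With the replicate block 82 genes and 0 members were called. The labels give no pairing by replicate number. Deviations of same-numbered libraries correlated at 0.267, -0.437, 0.341 and -0.156, and those of differently numbered libraries at -0.511 to 0.561. So few values cannot settle whether libraries were paired. The cause of the changes between fits was not tested. With 1 library left out, the log2 ratio of the summed Sprr1 and Sprr3 level was 3.43 to 4.37 and that of the summed Sprr2 level 0.64 to 1.64. The Sprr2d share differed by 15.5 to 20.6 percentage points, a range added after the data were seen. The fit without the genes that have no symbol was run first, and the change to all genes was made after its results were seen. It called 180 genes and 0 members, and Sprr2a1 was not under an unadjusted p of 0.05 in it. None of the 8 tested members changed direction in any alternative, and Sprr1b and Sprr3 were not followed through them. With 4 mice per genotype single libraries weigh heavily: the 218-fold spread of Sprr2b between WT libraries rests on WT library 2, at 0.524 CPM where the others had 29.6 to 114.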
